A study of Mus musculus with 24 samples.

Results

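The transcripts described here are those of 3 histamine receptors, Hrh1, Hrh2 and Hrh3, and of Hnmt, the enzyme that methylates histamine. They were taken by gene symbol from a table of 14074 genes measured by bulk RNA-seq in the mouse prefrontal cortex (PFC), and all 4 were present. The libraries came from 24 male C57BL/6 mice of 10 to 12 weeks, with 1 library per mouse and 6 groups of 4. Control mice were housed singly for 5 days, whereas the stressed mice met aggressive CD1 males daily for 30 days (chronic social defeat stress, CSDS). Stressed mice were split by their behaviour on day 29 into a passive (PS, labelled dep1) and an active (AS, labelled dep2) coping phenotype. Mice of each phenotype were injected with saline or with 2 mg/kg dexamethasone (DEX, an agonist of the glucocorticoid receptor, GR), and the PFC was taken 6 h later. The PS and AS groups are therefore behavioural clusters of wild-type mice that met the same stressor, and the dissected block held motor and orbital as well as medial prefrontal areas.

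Histamine in the forebrain is released by neurons of the tuberomammillary nucleus in the hypothalamus, which send axons to the whole cortex and keep it awake. The H1 receptor couples to Gq proteins and raises intracellular calcium, and its blockade in the brain causes the sedation of older antihistamines. The H2 receptor couples to Gs proteins and raises cyclic AMP. The H3 receptor couples to Gi/o proteins, sits on histamine axon terminals and on those of other transmitters, and restrains release. The brain has no known high-affinity reuptake of histamine like that of the monoamines, and extracellular histamine is cleared mainly through methylation by Hnmt, after which monoamine oxidase B oxidises the product.

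Depth ran from 21121869 to 59439645 reads on genes, with a median of 24420130. Both AS groups were deeper (group medians of 34242532 with saline and 37876626 with DEX) than the other 4 groups (22869703 to 24187702). The deposited values allowed the reads behind them to be recovered, and all 4 genes had at least 10 reads in each library. Replicates were distinct libraries, since counts within each of the 36 replicate pairs differed beyond sampling noise (chi-square per gene of 5.74 to 81.8). Fkbp5, a GR target that served as a check of the DEX labels, was higher with DEX in all 3 phenotypes, with log2 differences of 2.26 in control, 2.00 in PS and 1.91 in AS mice and no overlap between libraries.

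Hrh1 (ENSMUSG00000053004) lies on the plus strand of mm10 at chr6:114397936-114483296. Hrh2 (ENSMUSG00000034987) is at chr13:54192129-54236180 on the plus strand. Hrh3 (ENSMUSG00000039059) at chr2:180099465-180104488 and Hnmt (ENSMUSG00000026986) at chr2:24002910-24049394 are on the minus strand of the same chromosome. Read counts were divided by the length of the annotated exons to compare levels between genes. On this scale Hrh3 was the most abundant of the 4, at 1114 normalized counts per kb averaged over the 24 libraries, which was above 92.3% of the genes in the table. Hnmt followed at 308 per kb, above 70.1% of genes. Hrh1 at 94.4 and Hrh2 at 69.9 per kb were above 35.9% and 27.9% of genes. Hrh3 was thus the transcript measured with most reads, and Hrh1 rested on 236 to 1066 reads per library. In the annotation, Hrh2 shares 145 exonic bases with the antisense gene Gm16578 and Hrh3 shares 349 with Gm17180. The libraries were strand-specific, but the strand setting of the counting is not given in the sources used here, so whether reads of these partners entered the receptor counts is not known.

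All 4 genes had windows in a RefSeq promoter table (build GRCm38.p6, 250 bases before to 50 after each annotated start), 8 windows in all, of which 4 belonged to Hrh1. Since Hrh1 was the gene that differed most with DEX, the 250 bases before its first start (chr6:114397686-114397935, plus strand) are shown, with the letters GGCGGG or their reverse complement in capitals. This stretch held 3 such matches and was 71.2% G and C, and 32.5% of the same stretches of all windows held at least 1 match.
Hrh1, first start: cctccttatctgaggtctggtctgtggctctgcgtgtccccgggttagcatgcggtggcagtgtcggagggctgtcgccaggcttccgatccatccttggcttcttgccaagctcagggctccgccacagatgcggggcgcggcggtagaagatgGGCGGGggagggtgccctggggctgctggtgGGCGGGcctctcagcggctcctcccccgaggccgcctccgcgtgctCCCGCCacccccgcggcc
The letters of the GR half-site, AGAACA, searched on both strands, were in 2 of the 4 Hrh1 windows and in none of those of Hrh2, Hrh3 and Hnmt, and 19.0% of all 32851 windows held them. The match that lay before a start is 138 bases upstream of the third Hrh1 start, outside the exons annotated in GENCODE M21 (chr6:114403501-114403560, plus strand), and is shown in capitals.
Hrh1, half-site: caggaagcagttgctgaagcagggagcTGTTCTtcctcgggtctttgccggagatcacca
The full element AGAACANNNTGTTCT and the inverted repeats CTCCGGAGA, CTCCNGGAGA and CTCCNNGGAGA, which have been described as negative GR elements, were in none of the 8 windows, and 0.00913%, 0.317%, 0.737% and 0.676% of all windows held them. These matches describe letters in short windows and not GR binding.

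Hrh1 was lower with DEX in control and AS mice, and every library from a DEX-treated mouse lay below every library from a saline-treated mouse. In control mice with saline, normalized counts of Hrh1 were 417, 459, 477 and 512, with a mean of 466 ± 39.5 (SD, n = 4). With DEX they were 308, 333, 354 and 372 (342 ± 27.5). The highest DEX library of the control mice was thus below the lowest saline library. In PS mice the saline libraries held 428, 437, 467 and 499 (458 ± 31.9) and the DEX libraries 341, 371, 377 and 385 (368 ± 18.9), again without overlap. In AS mice the saline libraries spread more widely, at 432, 523, 555 and 628 (535 ± 81.3), and the DEX libraries lay at 299, 316, 391 and 406 (353 ± 53.1). Over the 3 phenotypes, the 12 DEX libraries ranged from 299 to 406 and the 12 saline libraries from 417 to 628. Of all 14074 genes, 35 (0.249%) had all 12 DEX libraries below all 12 saline libraries.

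**Figure D1:**
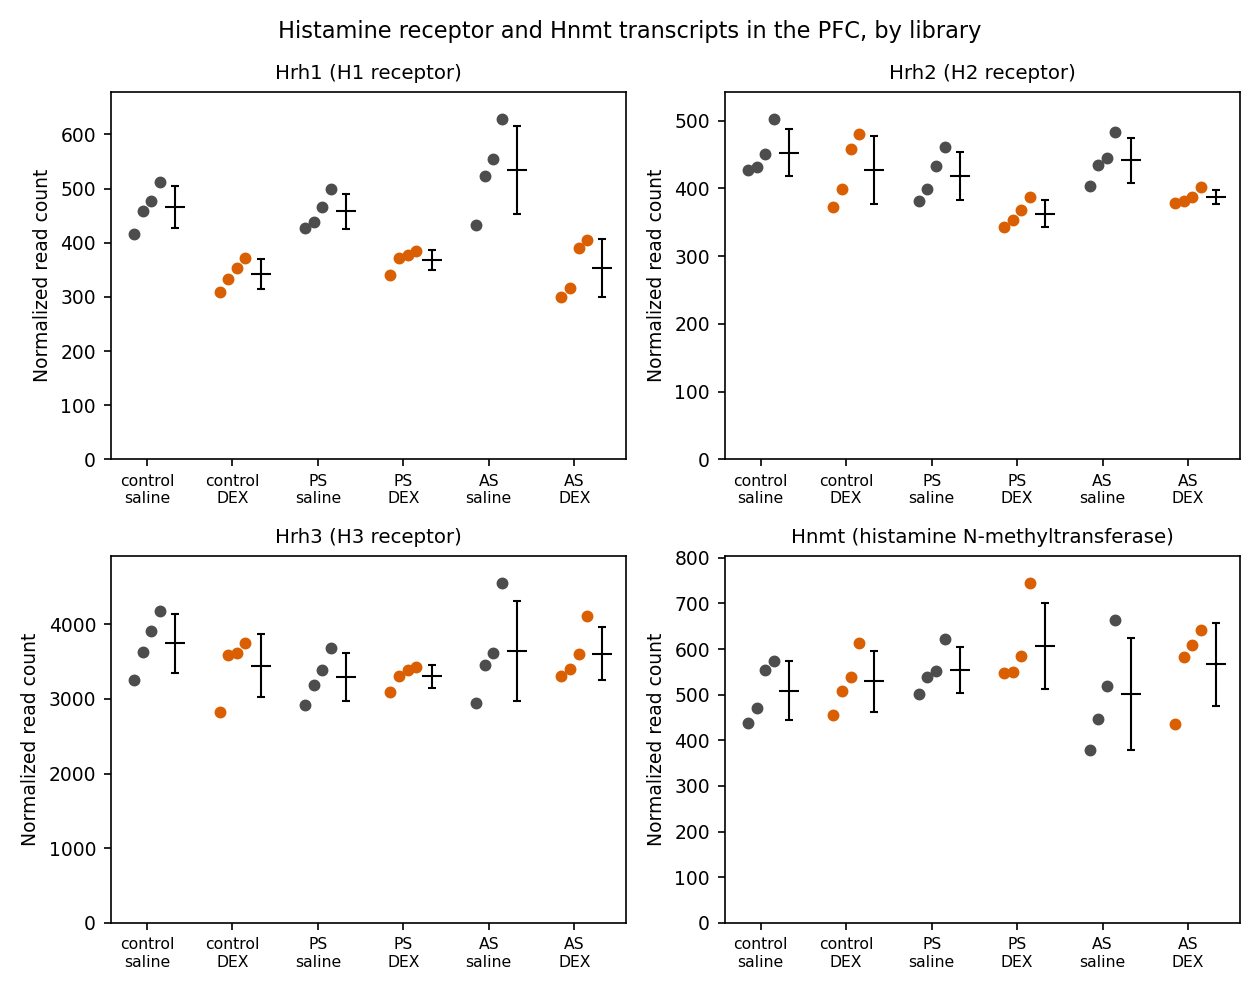
Normalized read counts (y axis, from 0) of Hrh1, Hrh2, Hrh3 and Hnmt in each of the 24 libraries, by group (x axis). Points are libraries, grey with saline and orange with DEX, and bars beside them are the group mean ± SD (n = 4). For Hrh1 the orange points (299 to 406) lie below all grey points (417 to 628), whereas the colours overlap for Hrh2, Hrh3 and Hnmt.

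On the log2 scale, Hrh1 fell by 0.45 with DEX in control mice (SE 0.11, 95% interval -0.67 to -0.23), and this difference passed in limma with Benjamini-Hochberg adjustment over all genes (adjusted p = 0.0144). In that comparison 6.49% of all genes passed, and 2.46% of all genes passed as lower. In AS mice it fell by 0.60 (95% interval -0.82 to -0.38, adjusted p = 0.000966 in limma), where 8.77% of genes passed and 4.95% were lower. In PS mice the difference was -0.31 (95% interval -0.53 to -0.09) and did not pass in limma (adjusted p = 0.128), where 5.36% of genes passed and 2.62% were lower. DESeq2 on recovered reads gave -0.32 in PS mice, with an adjusted p of 0.0815, and a limma fit of PS mice alone gave an adjusted p of 0.0557, so the call in PS mice depended on the test. It also passed without the AS saline library of mouse 44, which changes only the shared estimate of the spread (limma, adjusted p = 0.0762). The exact permutation test over libraries, two-sided, gave p = 0.0286 in each of the 3 phenotypes, which is the smallest value that 4 against 4 allows. No overlap with DEX lower was found for 4.32%, 4.57% and 5.02% of all genes in control, PS and AS mice. Averaged over the 3 phenotypes, Hrh1 fell by 0.45 (SE 0.06, adjusted p = 1.00e-05 in limma), or 26.9%, and 15.5% of all genes passed in this average, with 8.01% of all genes lower. The differences in response between phenotypes did not pass in limma. The AS response minus the control response was -0.15 (95% interval -0.46 to 0.16), the PS response minus the control response was 0.14 (-0.18 to 0.45), and the AS response minus the PS response was -0.29 (-0.60 to 0.03).

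Markers of several cell types differed with DEX in the same libraries. The share of all genes that passed in limma was 6.49%, 5.36% and 8.77% in control, PS and AS mice. In AS mice 5 of 10 endothelial markers fell (Tek, Cdh5, Pecam1, Emcn and Flt1), and their summed level was 5142 to 8419 normalized counts with saline and 3758 to 5947 with DEX. Of 9 mural markers, 4 fell in AS mice (Tagln, Rgs5, Acta2 and Vtn), with sums of 5140 to 9018 and 3946 to 4923. Hrh1 is known from vascular endothelium as well as from neurons and glia, and its own fall in AS mice stood beside list medians of -0.64 for endothelial and -0.72 for mural markers. In control mice these medians were 0.26 and 0.30, with 0 of 10 and 0 of 9 markers called by limma, edgeR or DESeq2 (1 and 2 had an unadjusted p under 0.05 in limma), while Hrh1 fell there by 0.45. Endothelial sums in control mice were 5808 to 7796 with saline and 6232 to 9461 with DEX. Microglial markers fell in part in each phenotype (3 of 10 in control mice and 5 of 10 in PS and in AS mice), with sums of 12648 to 13446 with saline and 10078 to 11981 with DEX in AS mice. Oligodendrocyte markers went both ways, as 3 of 9 fell in control mice (31040 to 48876 with saline, 26842 to 38482 with DEX) and Mobp rose in AS mice (sums of 20318 to 34791 and 32415 to 47672). Astrocyte markers were mixed, with Gjb6 and Fgfr3 higher in all 3 phenotypes and Aqp4 lower in PS and AS mice. The list medians of pyramidal (-0.05, -0.04 and -0.03 in control, PS and AS mice) and GABAergic markers (-0.02, 0.09 and 0.04) lay near 0, but single neuronal markers passed in both directions. Of 8 pyramidal markers, Neurod6 fell in control mice (-0.54) and Tbr1 rose in AS mice (0.27), and of 8 GABAergic markers, Vip rose in control mice (0.30) and Lhx6 (0.34) and Pvalb (0.59) rose in AS mice. In PS mice 0 of 8 in either list passed in limma, edgeR or DESeq2, and 3 pyramidal and 1 GABAergic marker had an unadjusted p under 0.05 in limma. In the average over phenotypes, 3 of 8 pyramidal markers fell (Neurod6, Emx1 and Cux2) and Lhx6 rose. There 15.5% of all genes passed in limma, 8.01% of all genes passed as lower, and the pyramidal list median was -0.03. Mast cells are a further source of brain histamine, and of 8 markers of them Kit alone, which neurons also express, was analysed here. Only markers among the analysed genes were tested (1 of 5 for choroid plexus). That none of these was at 0 throughout therefore says little. The part of these cell types in the Hrh1 result was not tested. In bulk tissue, fewer cells that carry a transcript and less of it per cell cannot be told apart.

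**Figure D2:**
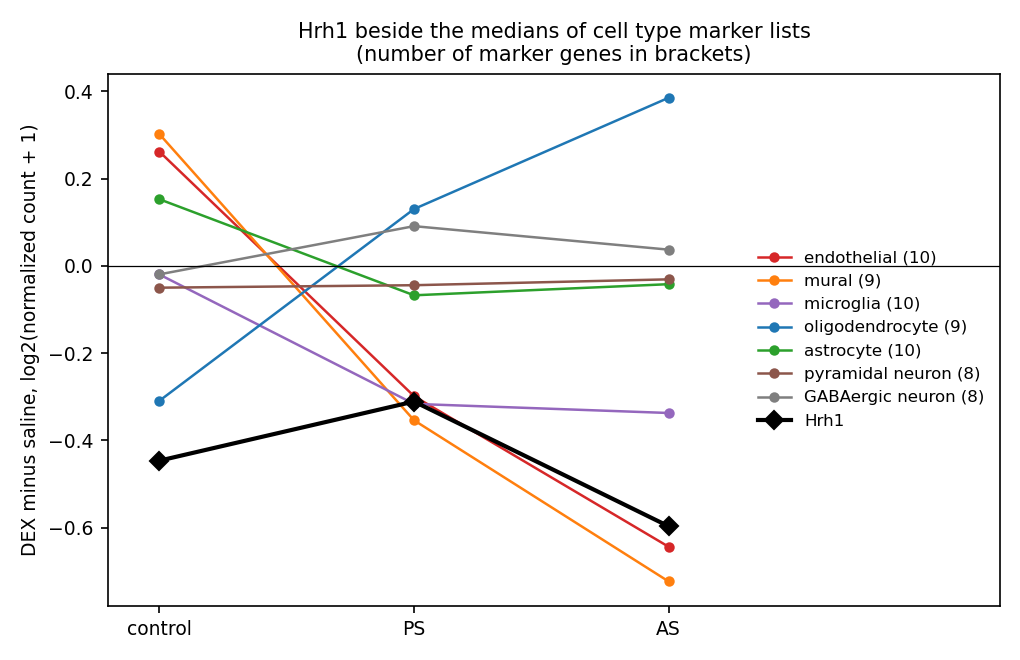
Difference between DEX and saline on the log2(normalized count + 1) scale (y axis) in control, PS and AS mice (x axis) for Hrh1 (black diamonds) and for the median of each marker list (coloured points, number of genes in brackets). Lines join the values of one gene or list. Hrh1 was at -0.45, -0.31 and -0.60, whereas the endothelial and mural medians were above 0 in control mice and below 0 in PS and AS mice.

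Hrh2 was slightly lower with DEX when the 3 phenotypes were averaged, but passed in none of them alone. In control mice the saline libraries held 427, 432, 450 and 502 normalized counts (453 ± 34.2, n = 4) and the DEX libraries 373, 399, 458 and 481 (428 ± 50.1), which overlapped widely. In PS mice they held 381, 399, 432 and 460 with saline (418 ± 35.3) and 343, 353, 369 and 387 with DEX (363 ± 19.4). In AS mice the saline libraries (403, 435, 445 and 483, mean 441 ± 33.1) were all above the DEX libraries (378, 381, 387 and 402, mean 387 ± 10.6), by a margin of about 1 normalized count between the nearest 2. Such a lack of overlap with DEX lower was found for 5.02% of all genes in AS mice. In control mice DEX gave a log2 difference of -0.09, against -0.20 for PS and -0.19 for AS mice, with adjusted p of 0.716, 0.252 and 0.234 in limma. Their average of -0.16 (95% interval -0.26 to -0.06) passed in limma (adjusted p = 0.0329), so that Hrh2 fell by 10.4% with DEX over all phenotypes. Of the 12 DEX libraries, 10 lay below the median of the saline libraries. In total, 2 of the 4 genes passed in this average, both as lower, where 15.5% of all genes passed and 8.01% of all genes passed as lower.

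Hrh3, the most abundant of the receptors, did not differ detectably with DEX. Means were 3743 ± 396 and 3446 ± 420 normalized counts in control mice with saline and with DEX, 3290 ± 322 and 3304 ± 151 in PS mice, and 3645 ± 673 and 3609 ± 360 in AS mice (SD, n = 4). The saline libraries ran from 2915 to 4558 with a median of 3538, and the DEX libraries from 2826 to 4116 with a median of 3413. The average difference over phenotypes was -0.04 (95% interval -0.17 to 0.09, adjusted p = 0.832 in limma). This interval leaves out a change of the size seen for Hrh1 in the same average. The saline AS libraries were the most uneven, at 2947, 3457, 3618 and 4558.

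Hnmt, which inactivates histamine inside cells after uptake, had the largest SE of the 4 in the fit (0.15 on the log2 scale in each phenotype). Ordered from low to high, its means were AS saline (502 ± 123), control saline (509 ± 65.2), control DEX (529 ± 66.1), PS saline (554 ± 50.2), AS DEX (567 ± 91.2) and PS DEX (607 ± 93.8), and no neighbours in this order differed beyond their spread in limma. Single libraries ran from 378 to 665 in saline AS mice, as wide as the whole range of the saline libraries. With DEX the libraries ran from 435 to 745, and 9 of 12 lay above the saline median of 529. The differences between DEX and saline were 0.06, 0.12 and 0.19 in control, PS and AS mice, and their average of 0.12 (95% interval -0.05 to 0.30) did not pass in limma (adjusted p = 0.459). Single libraries weighed on these values, as leaving out 1 gave 0.02 to 0.18 in PS mice and 0.07 to 0.34 in AS mice, the extremes coming without PS DEX mouse 52 and PS saline mouse 2, and without AS saline mice 8 and 44.

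The stress phenotypes without DEX were compared next. None of the 4 genes passed between PS and control mice with saline, where 1.51% of all genes passed in limma, or between AS and control mice with saline, where 0.156% did. In both comparisons 0 of 4 had an unadjusted p under 0.05, and edgeR and DESeq2 also called 0 of 4. Hrh1 in AS mice differed from control by 0.19 (95% interval -0.03 to 0.41, adjusted p = 0.525 in limma), carried by the libraries at 523, 555 and 628 while the library at 432 lay within the control range of 417 to 512. In PS mice Hrh1 differed from control by -0.02 (-0.25 to 0.20). Hrh3 was at -0.19 (-0.41 to 0.04) in PS mice and -0.05 in AS mice, Hrh2 at -0.12 and -0.04, and Hnmt at 0.13 and -0.04. The intervals of the receptors reached 0.41 on the log2 scale in either direction, and with 4 libraries per group differences within them were not excluded. Between AS and PS mice with saline, Hrh1 differed by 0.21 (-0.01 to 0.43, adjusted p = 0.934 in limma), a comparison in which 0.0% of all genes passed in limma, 671 had an unadjusted p under 0.05, and edgeR and DESeq2 called 0 and 11. None of the 12 differences in DEX response between phenotypes passed for the 4 genes. For the AS against the control response 0.348% of all genes passed in limma. There 1902 genes had an unadjusted p under 0.05 in limma, and edgeR and DESeq2 called 77 and 439. For the PS against the control response 0.0% passed in limma, 1404 genes had an unadjusted p under 0.05, and edgeR and DESeq2 called 0 and 23. For the AS against the PS response the share in limma was 0.0% as well, with 344 genes at an unadjusted p under 0.05 and 0 called by edgeR and by DESeq2. The 3 DEX comparisons use separate libraries, whereas both stress comparisons share the control saline libraries.

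**Figure D3:**
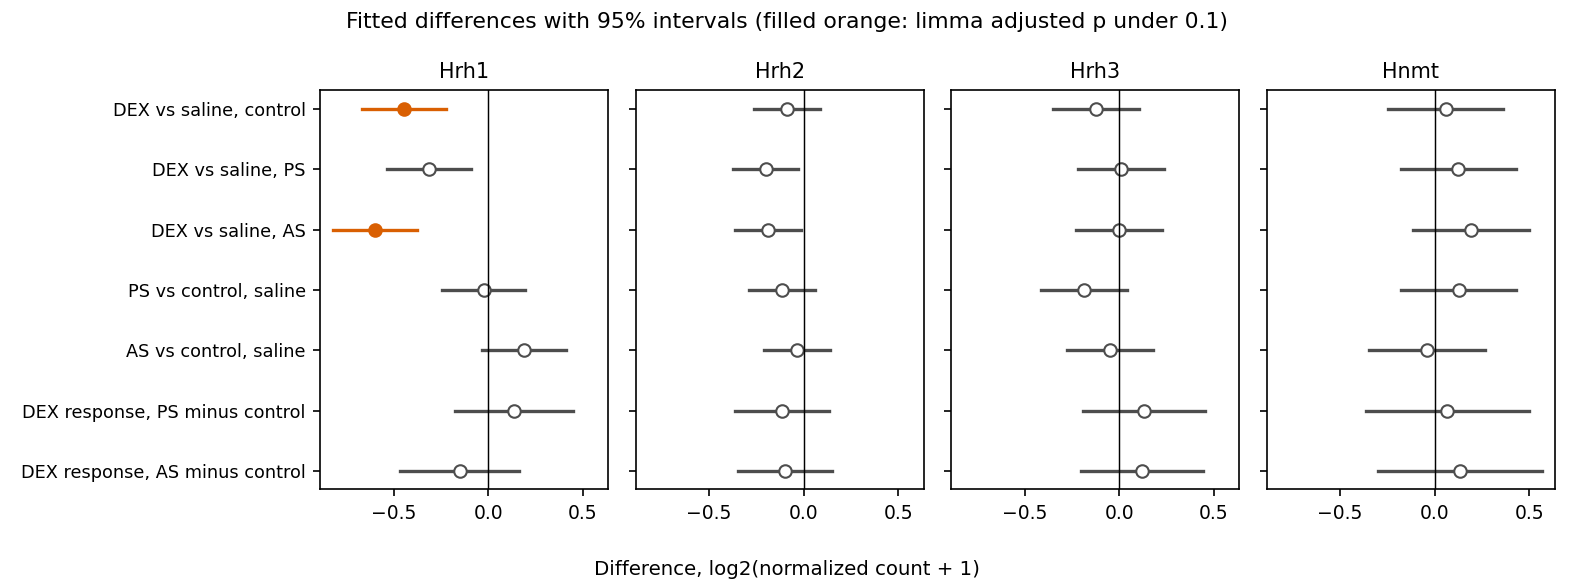
Fitted differences on the log2(normalized count + 1) scale (x axis) with 95% intervals for 7 comparisons (y axis) and the 4 genes (panels). Filled orange points had a limma adjusted p under 0.1, which held only for Hrh1 with DEX in control (-0.45) and AS mice (-0.60) among the comparisons drawn.

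Ordered by level, the 3 DEX groups of Hrh1 came first (342 in control, 353 in AS and 368 in PS mice) and the 3 saline groups last (458 in PS, 466 in control and 535 in AS mice), and neighbours in this order did not differ in limma (the lowest adjusted p was 0.128, between PS DEX and PS saline). For Hrh2 the order was PS DEX, AS DEX, PS saline, control DEX, AS saline and control saline, and here too no neighbours differed. Hrh3 had its lowest means in both PS groups and its highest in saline control mice, with neighbours apart by at most 0.07 on the log2 scale. The spread within groups was smallest for the DEX groups of Hrh2 in AS mice (2.74% of the mean) and of Hrh3 in PS mice (4.58%). It reached 24.5% for Hnmt, 18.5% for Hrh3 and 15.2% for Hrh1 in saline AS mice.

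The other steps of the histamine pathway were covered in part. Of 10 genes listed for histamine synthesis, transport and other breakdown, a list that also held the H4 receptor gene Hrh4, 5 were tested. Hdc, Slc18a2, Slc22a3, Aoc1 and Hrh4 were not analysed here. Maoa, which deaminates serotonin and noradrenaline, fell by 0.22 with DEX in PS mice (883 ± 15.8 to 758 ± 49.6 normalized counts, adjusted p = 0.0589 in limma). In control and AS mice Maoa was at 0.01 and -0.03. Slc22a2, an organic cation transporter, fell by 1.16 in AS mice (55.1 ± 15.8 to 23.9 ± 4.87, adjusted p = 0.0787 in limma), a gene with few reads whose call was lost with library size as a covariate. It was at -0.92 in PS mice (51.8 ± 34.4 to 23.5 ± 10.3, adjusted p = 0.245 in limma) and 0.09 in control mice, and fell by 0.66 in the average over phenotypes (adjusted p = 0.0506 in limma). Maob, which oxidises methylated histamine, was at 0.23, 0.03 and 0.08 in control, PS and AS mice and passed in none (adjusted p of 0.123 to 0.952 in limma). Slc29a4, a monoamine transporter of low affinity, was at 0.29, -0.16 and -0.32, and Aldh2, which oxidises the aldehydes that monoamine oxidases make, at 0.16, 0.10 and -0.08, and neither passed. The list median was 0.16, -0.16 and -0.08 in the 3 phenotypes, against a median of all genes between -0.01 and 0.00.

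Below the H1 receptor, 13 of 14 listed genes of Gq signalling were tested. With DEX 1 rose in control mice, and 1 rose and 2 fell in AS mice. Of all genes, 6.49%, 5.36% and 8.77% passed in limma in control, PS and AS mice. In PS mice 0 of 13 passed in limma, edgeR or DESeq2, and 2 had an unadjusted p under 0.05 in limma. Itpr2, an IP3 receptor of the endoplasmic reticulum, rose by 0.44 in control mice (697 ± 39.7 to 947 ± 111, adjusted p = 0.00737 in limma) and was at 0.19 and 0.23 in PS and AS mice. In the average over phenotypes Itpr2 rose by 0.29 (adjusted p = 0.000781 in limma). Plcb4, a phospholipase C, rose by 0.41 in AS mice (1970 ± 48.1 to 2626 ± 251, adjusted p = 0.00279 in limma), where its relative Plcb3 fell by 0.38 (583 ± 67.1 to 450 ± 58.8) and the IP3 receptor Itpr3 fell by 0.85 (226 ± 73.1 to 119 ± 7.42). Plcb3 and Itpr3 thus went the other way from Plcb4 in the same libraries. With saline, Plcb4 was at 2443 ± 128 in control mice, and AS differed from control by -0.31 (adjusted p = 0.222 in limma). The AS response of Plcb4 minus the control response was 0.48 and passed in limma (adjusted p = 0.0972), as did 0.348% of all genes. This call lay close to the threshold of 0.1, and how it depends on the processing was not examined. Across the alternatives and leave-outs, 1 to 686 of all genes were called in this comparison. Plcb4 was at -0.07 in control and 0.20 in PS mice, and rose by 0.18 in the average (adjusted p = 0.0125 in limma). The Gq subunits themselves, Gnaq and Gna11, were at 0.07 and 0.04 in control mice, 0.04 and 0.05 in PS mice and 0.08 and -0.08 in AS mice, and none of these passed. The list median was at 0.00, 0.01 and 0.08.

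Of 11 genes of Gs signalling below the H2 receptor, Adcy8, a calcium-stimulated adenylyl cyclase, fell by 0.82 with DEX in control mice (621 ± 169 to 346 ± 59.0, adjusted p = 0.00196 in limma). It was at -0.21 in PS and -0.35 in AS mice and did not pass there. In the average over phenotypes Adcy8 fell by 0.46 (adjusted p = 0.000946 in limma). Its PS and AS responses minus the control response were 0.61 and 0.48 and did not pass (adjusted p of 0.379 and 0.349 in limma). The other 10 genes passed in no phenotype, while 6.49%, 5.36% and 8.77% of all genes passed in limma in control, PS and AS mice. Of 9 genes of Gi/o signalling below the H3 receptor, Kcnj9, a subunit of G protein-gated potassium channels, fell by 0.30 in control mice (5010 ± 404 to 4073 ± 231) and by 0.22 in PS mice (5141 ± 394 to 4393 ± 159), with adjusted p of 0.0118 and 0.0781 in limma, and was at -0.13 in AS mice. In the average over phenotypes Kcnj9 fell by 0.22 (adjusted p = 0.000463 in limma). Gnai2, a Gi subunit, fell by 0.31 in AS mice (5069 ± 297 to 4094 ± 324, adjusted p = 0.0272 in limma). Gnai2 was at -0.07 in control and -0.11 in PS mice, and fell by 0.17 in the average (adjusted p = 0.0239 in limma). The medians of both lists lay between -0.07 and 0.04.

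Receptor kinases phosphorylate active receptors, and arrestins then uncouple these from G proteins. Of 7 genes listed for both, 6 were tested. Grk5 fell by 0.48 in PS mice (740 ± 33.1 to 530 ± 19.1, adjusted p = 0.00182 in limma) and by 0.53 in AS mice (776 ± 58.5 to 539 ± 64.7, adjusted p = 0.000589 in limma), and was at -0.20 in control mice (adjusted p = 0.284 in limma). Over the 3 phenotypes it fell by 0.40 (SE 0.05). Grk3 rose by 0.26 in control mice (2964 ± 150 to 3556 ± 107, adjusted p = 0.0770 in limma) and was at 0.16 and 0.07 in PS and AS mice. Its average over phenotypes was 0.16 (adjusted p = 0.0236 in limma). Grk2, Grk6 and Arrb1 lay between -0.12 and 0.02 in all 3 phenotypes and did not pass. Under stress with saline, 0 of the 44 tested genes of these 5 lists passed in limma or edgeR in PS or in AS mice, 4 and 7 had an unadjusted p under 0.05 in limma, and DESeq2 called 0 and 1.

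**Figure D4:**
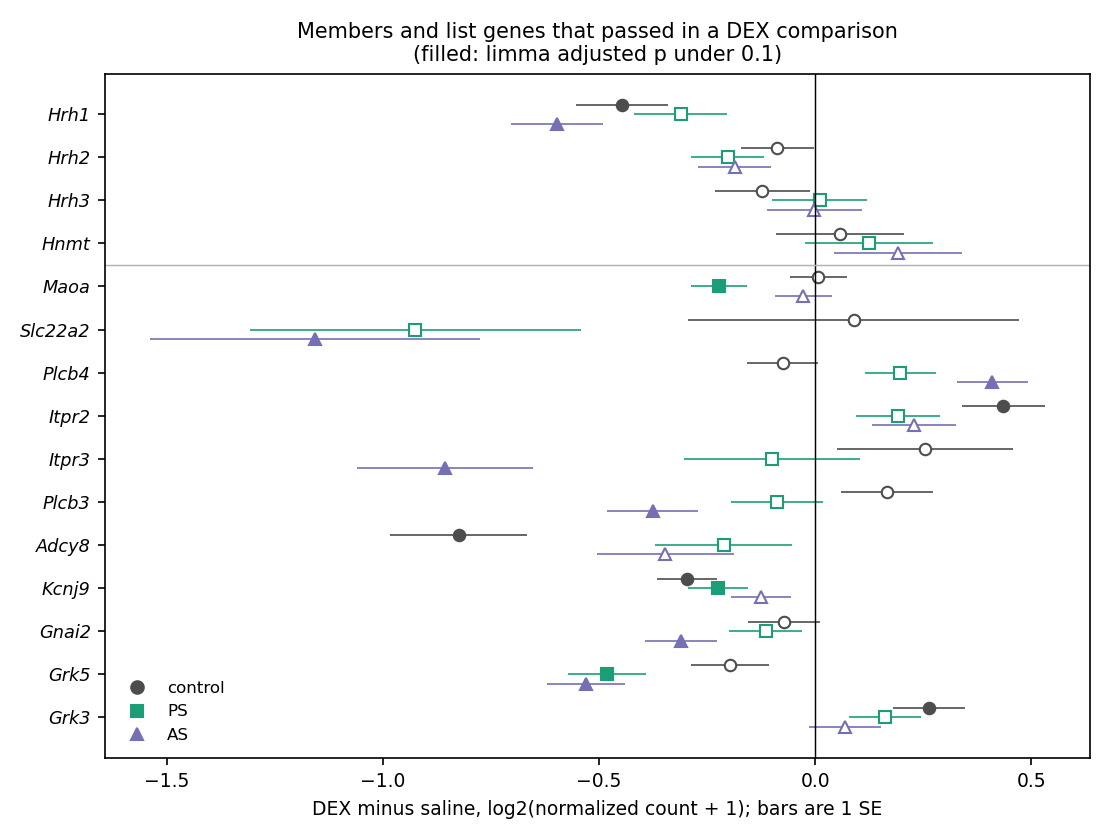
Difference between DEX and saline on the log2(normalized count + 1) scale (x axis, bars are 1 SE) for the 4 genes above the grey line and for the 11 list genes that passed in at least 1 phenotype below it. Circles are control, squares PS and triangles AS mice, and filled symbols had a limma adjusted p under 0.1. Grk5 in PS (-0.48) and AS mice (-0.53) lies near Hrh1, whereas Plcb4 and Itpr2 lie to the right.

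Genes with the most similar pattern were sought by Pearson's r among the 12017 genes whose mean reached 100 normalized counts, over the 24 libraries. These values describe libraries that share groups, normalization and depth, and carry no test. Closest to Hrh1 were Zdhhc22, C2cd4c, Cbfa2t3 and Zfyve28 (r = 0.89 each) and Pknox2 (0.88), all of which were lower with DEX on average, by 0.29 to 0.56 on the log2 scale. With each group mean subtracted, their r with Hrh1 was 0.61 to 0.71 and their rank 160 to 502 among the same genes. Closest to Hrh2 were Tgfb1 (0.81), Zfp521 (0.80) and Zhx2 (0.80), which ranked 66, 40 and 3 with group means subtracted. Hrh3 was closest to Grm2 (0.78), a presynaptic glutamate receptor, and then to Lrrc4b (0.75) and Lrrtm1 (0.73), and these ranked 3, 6 and 10 with group means subtracted. Hnmt was closest to Atp6ap2 (0.89), Serpini1 (0.88) and Eif4a2 (0.85), which ranked 4, 2 and 3 with group means subtracted.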

How the data were processed

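The authors trimmed the paired-end poly(A) reads with fastp 0.20.1, aligned them to mm10 with HISAT2 2.2.1, counted them on genes of GENCODE M22 with featureCounts (Subread 2.0) and deposited a signal per gene and library, the read count divided by a DESeq2 1.36.0 size factor. The authors' own fold changes and p-values were not used, and DRN libraries were not analysed here.

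Values were whole multiples of 1 read within 0.01 read. limma 3.58.1 (R 4.3.3, trend) took log2(normalized count + 1) as input and fitted 6 group means to all 24 libraries and 14074 genes. A gene passed below 0.1, the threshold of the study, after Benjamini-Hochberg adjustment over all genes. Changes of low genes are understated on this scale. The fits were tested on simulated counts. Alternatives were a pseudocount of 8, filters at a mean of 100 normalized counts or 10 reads, quantile normalization, only the groups compared, library size as covariate, edgeR 4.0.16 and DESeq2 1.42.0 on recovered reads, edgeR on thinned reads, and each library left out.

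The genes, lists and markers were chosen with earlier results of these data known. Named beside the 4 genes were list genes that passed in a DEX or saline stress comparison (up to 6 per list by adjusted p), the whole list of synthesis, transport and other breakdown, Fkbp5, and the most correlated genes (5 for Hrh1, 3 for each other). Marker genes named for cell types were chosen after their values were seen. Some marker genes that passed are not reported here by name. Exon lengths came from GENCODE M21 and promoter windows from RefSeq.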

Additional observations from a re-analysis of the deposited data

How the results depend on the processing

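Over 9 alternatives (8 for the average of 3 phenotypes) and 24 leave-outs, Hrh1 with DEX kept its direction and its call in control (-0.50 to -0.40 without 1 library, adjusted p up to 0.0632 in limma) and AS mice (-0.70 to -0.52), and Hrh1 and Hrh2 kept theirs in the average. In PS mice Hrh1 passed with only the groups compared (-0.31, adjusted p = 0.0557 in limma) and in DESeq2 (-0.32, adjusted p = 0.0815). Without 1 library its difference was -0.34 to -0.27, and it passed without AS saline mouse 44. Differences near 0 changed sign without a call, and the cause was not tested. Hrh1 in PS against control with saline was 0.0027 on thinned reads. Hrh3 with DEX was -0.0027 in PS mice after quantile normalization, and in AS mice 0.0034 with library size as covariate and 0.0085 on thinned reads. Without 1 library, Hrh1 in PS against control with saline was -0.0771 to 0.0213, Hrh2 in AS against control with saline -0.0813 to 0.0136, and Hrh3 -0.0461 to 0.0656 with DEX in PS mice, -0.0981 to 0.112 in AS mice, -0.0699 to 3.53e-06 in the average and -0.163 to 0.0463 in AS against control with saline. Hnmt was -0.0164 to 0.127 with DEX in control mice, -0.187 to 0.0842 in AS against control with saline and -0.0354 to 0.141 for the PS response minus the control response. For Hrh1, AS against PS with saline and the AS response minus the PS response kept their direction and passed under no setting. The other results of the 4 genes for DEX, for stress against control with saline and for the responses against control kept their direction and side of the threshold. Pairs of groups compared only as neighbours in order of level were not refitted.

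Counts of all genes called ran from 611 to 1032, 509 to 903 and 673 to 1985 for DEX in control, PS and AS mice, from 57 to 523 and 5 to 99 for PS and AS against control with saline, and from 0 to 23 and 1 to 686 for the PS and AS responses minus the control response. The same alternatives for list genes were added after their values were seen, for DEX within each phenotype only. Itpr2, Itpr3, Plcb4, Adcy8, Grk5 and Kcnj9 in control mice kept their calls throughout. Maoa lost its call on thinned reads and in 7 of 24 leave-outs, Slc22a2 with library size as covariate and in 6, Plcb3 with only the groups compared and in 3, Kcnj9 in PS mice with library size as covariate and in 6, Grk3 in 7 leave-outs and Gnai2 in 2. Of the named markers, Tek, Flt1, Acta2, Vtn and Mobp in AS mice and Neurod6 in control mice kept their calls throughout. Gjb6, Fgfr3 and Aqp4 did so too. Pecam1 was called in 6 of 9 alternatives and 15 of 24 leave-outs, Lhx6 in 6 and 12, and Pvalb in 6 and 19. Emcn was called in 8 and 20, Cdh5 in 9 and 20, Tagln and Rgs5 in 7 and 19, Tbr1 in 7 and 20, and Vip in 9 and 19. No paired analysis was possible because the mouse numbers of the labels do not recur between groups. Hrh1, Hrh2 and Hnmt rest on 236 to 1186 reads per library, which with 4 libraries per group limits the detectable difference.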

Other observations

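Relations between the 4 genes beyond their group means were described as well. After each group mean was subtracted on the log2 scale, the 6 pairs of genes had Pearson's r of -0.39 to 0.36 over the 24 libraries. The pair of Hrh1 and Hrh2 had r = 0.36 (rho 0.43, permutation p = 0.0854 for r and 0.0384 for rho, two-sided, libraries permuted within groups), with a Benjamini-Hochberg adjusted p for r of 0.256 over 6 pairs, and r = 0.27 without the 2 libraries farthest from the median of Hrh1. The pair of Hrh2 and Hnmt had r = -0.39 (rho -0.44, permutation p = 0.0728 and 0.0536, adjusted p for r 0.256), and r = -0.28 without the 2 libraries farthest from the median of Hrh2. No pair passed after adjustment, and with 24 libraries correlations of this size were not excluded.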
